A study of Homo sapiens with 9 samples.

Results

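Collagens form the protein scaffold of cartilage, bone, skin and basement membrane, and the enzymes that modify them decide whether the chains fold, leave the cell and become cross-linked. Such genes were chosen by symbol, 59 among the 19389 genes of a normalized RNA-seq table, with earlier results of these data known. Every symbol of the form COL, a number, A and a number was taken except COL2A1, COL10A1 and COL11A1, which gave 41 collagen genes. To these were added 18 genes for hydroxylation, folding, propeptide removal and cross-linking of collagen chains (P4HA1 to P4HA3, P3H1, CRTAP, PPIB, PLOD1 to PLOD3, LOX, LOXL1 to LOXL4, SERPINH1, FKBP10, BMP1 and PCOLCE). The cells were SW1353, an established human chondrosarcoma line that is often used in place of chondrocytes, and all libraries came from this 1 line. There were 3 groups of 3 libraries: untreated cells, cells exposed for 20 h to 20 ng/mL of the inflammatory cytokine interleukin-1β (IL-1β), and cells pretreated for 2 h with PBSL before the same IL-1β exposure. PBSL was prepared from Protaetia brevitarsis seulensis larvae, the grubs of a beetle. No group received PBSL alone, so an effect of PBSL without IL-1β cannot be read from these libraries. The protocol lists several PBSL concentrations and does not say which was sequenced. Nor is it stated whether the libraries of a group came from separate cultures, so the spread behind each p-value is that of the libraries alone and may be technical. Values below are listed in the order of libraries 1, 2 and 3 of a group.

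A collagen molecule is a triple helix of 3 chains. In the endoplasmic reticulum, prolyl 4-hydroxylases stabilize the helix, lysyl hydroxylases prepare lysines for glycosylation and cross-linking, and the chaperones HSP47 (SERPINH1) and FKBP65 (FKBP10) assist folding. Outside the cell, propeptides are removed and lysyl oxidases cross-link the fibrils. Cartilage depends on fibrillar collagens for tensile strength, and inflammatory cytokines such as IL-1β are studied there because they induce collagen-degrading proteases.

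The values are expression levels that the authors had scaled. Their low end falls with transcript length, so levels are compared between genes below as values per length. A gene was tested where 3 or more libraries reached a value of 1. This left 40 of the 59 genes: 22 of the 41 collagens and all 18 other genes. The 19 untested collagens had highest library values from 0.005 (COL22A1) to 0.693 (COL9A2). Among them were COL11A2, with at most 0.525 in any library, and the type IX chains COL9A3 and COL9A1, with at most 0.136 and 0.013. Of the tested genes, 35 reached 1 in all 9 libraries, while COL5A2, COL8A2, P4HA3, LOXL1 and LOXL4 reached it in 3 to 6. COL8A2 passed only through the untreated libraries, where it was high. COL5A2, LOXL1 and LOXL4 reached 1 in no PBSL library, so they passed only through untreated or IL-1β libraries.

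Summed values per library ran from 523758 to 553196, and between 11562 and 11727 genes reached 1. PBSL 1 stood apart from the other libraries of its group. On the second principal component of all tested genes, with 16.6% of the variance, it lay at 0.578, between the IL-1β libraries (-12.4 to -11.5) and PBSL 2 and PBSL 3 (18.2 and 16.8). The same held for the 40 tested genes alone, where the second component carried 33.8% of the variance: IL-1β libraries lay at -1.44 to -1.31, PBSL 1 at 0.263, and PBSL 2 and PBSL 3 at 1.80 and 2.01. Chondrocyte markers were only partly present: of 12, SOX9, ACAN, COL11A1 and HAPLN1 were tested, and COL2A1 reached at most 0.0270 in any library. Because these are bulk libraries, fewer cells of a kind and less RNA per cell cannot be told apart.

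The first comparison asks what IL-1β alone changed. IL-1β split the collagen genes: COL7A1, COL5A3, COL16A1, COL6A1, COL6A2 and COL1A1 rose, whereas COL8A1, COL4A1, COL18A1, COL23A1 and COL12A1 fell. Among the modifying genes PLOD2, P4HA2, LOX, P4HA1, BMP1, P3H1 and LOXL2 rose, and LOXL3 and PCOLCE fell. In all, 13 of the 40 tested genes were higher and 8 lower. The 8 include COL8A2, which reached the filter only in untreated libraries and so had to be lower elsewhere, and which supports nothing here. Over all 11924 tested genes 32.1% were called, 16.2% higher and 16% lower. Complete separation of the 2 groups' libraries was seen for 18 higher and 12 lower of the 40 genes, and for 25.7% and 27.1% of all tested genes. The 12 again include COL8A2. The median log2 change of the 40 genes was 0.06, against -0.00491 for all tested genes. A log2 change here is fitted with limma after adding 1 to each value, and a gene is called at an adjusted p under 0.05.

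The second comparison asks how PBSL pretreatment altered the IL-1β-treated cells. Nearly every called gene was lower with PBSL. Of the 40 tested genes 28 fell, 14 of them collagens and 14 modifying genes, and 1, COL17A1, rose. The 28 include LOXL1 and LOXL4, which passed the filter only through untreated or IL-1β libraries. Their falls were favoured by the filter and add no support. Over all tested genes 22.5% were called, 11% lower and 11.5% higher. Complete separation was seen for 33 lower genes and 1 higher gene, beside 20.1% and 21.7% of all tested genes. The 33 include LOXL1, LOXL4 and COL5A2, to which the same limit applies. The median log2 change was -0.33, against 0.00794 for all tested genes. None of the 28 falls reached 2-fold on this scale; the largest was in COL8A1, with a log2 change of -0.86. With PBSL 1 left out, 29 genes fell and 2 rose, COL13A1 being the second, and the change of COL8A1 was -1.05. Without 1 of the IL-1β libraries the number that fell was 19, 21 or 22, and without PBSL 2 or PBSL 3 it was 24 or 21. Over all genes, 1314 were lower with every library kept, 730, 664 and 678 without IL-1β 1, 2 and 3, 1885 without PBSL 1, 723 without PBSL 2 and 912 without PBSL 3. The 10 genes whose call was lost in at least 1 of these were COL12A1, COL16A1, COL18A1, COL4A2, COL6A3, COL8A2, LOXL1, LOXL2, PLOD1 and PPIB, with adjusted p from 0.0510 to 0.0982, and none was lost without PBSL 1.

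**Figure D1:**
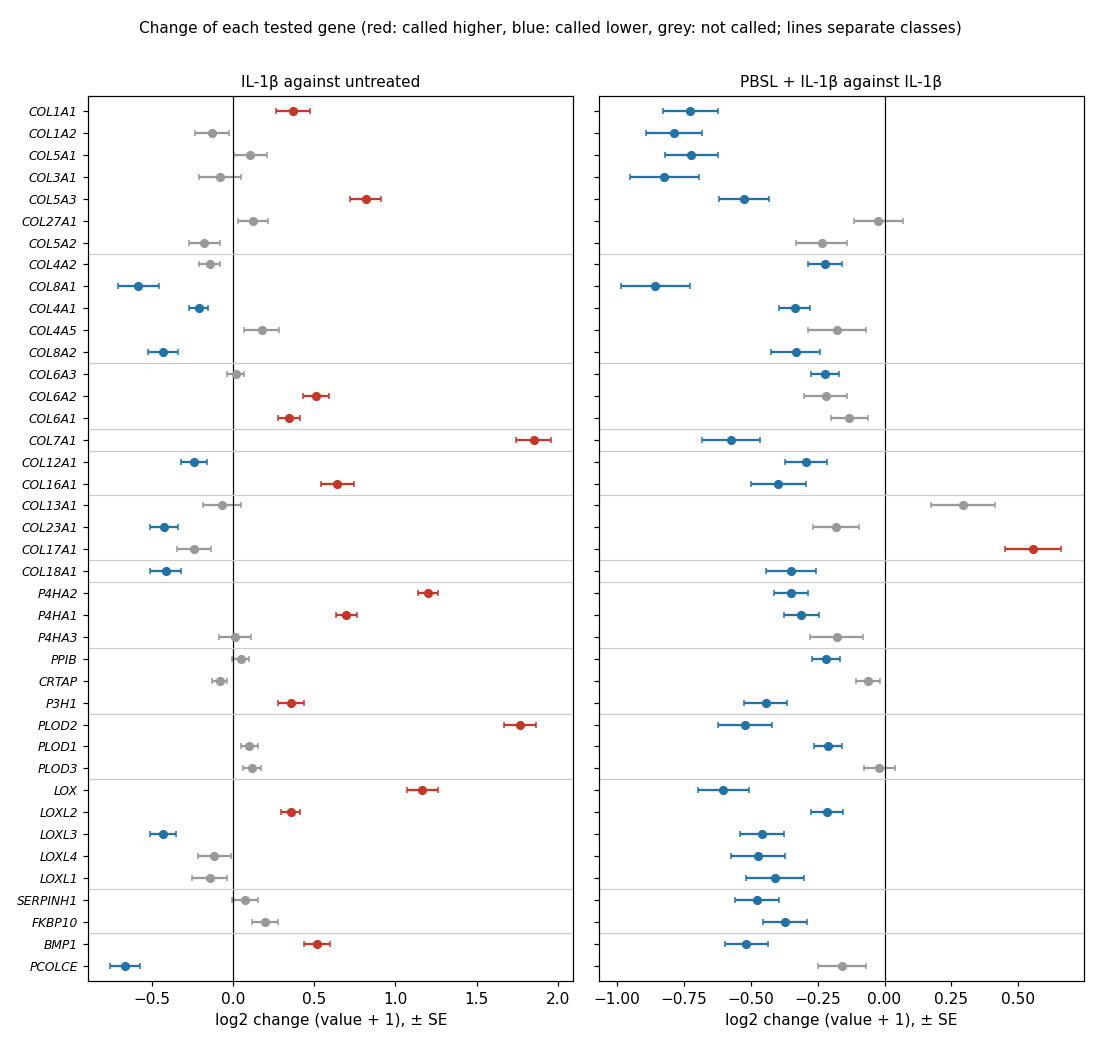
Fitted log2 change (value + 1) with its standard error for the 40 tested genes, ordered by class, for IL-1β against untreated cells (left) and for PBSL with IL-1β against IL-1β (right). Red points were called higher (13 left, 1 right), blue points called lower (8 left, 28 right) and grey points not called.

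**Figure D2:**
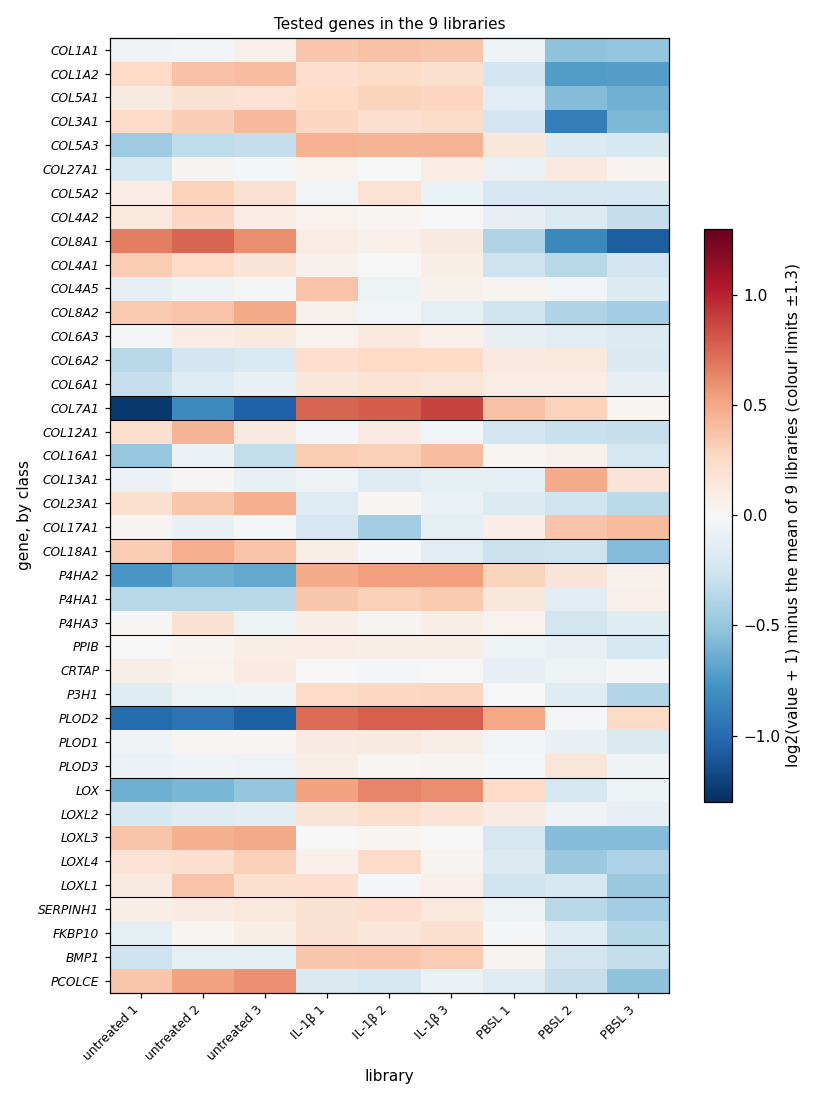
Each row is a tested gene and each column a library; colour gives log2(value + 1) minus the gene's mean over the 9 libraries. COL7A1 and PLOD2 are lowest in the untreated libraries, the fibrillar genes COL1A1, COL1A2, COL5A1 and COL3A1 are lowest in PBSL 2 and PBSL 3.

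Fibrillar collagens build the cable-like fibrils of connective tissue, and 7 of 9 were tested. COL1A1 and COL1A2, the chains of type I collagen, had the highest means of the set in untreated and in IL-1β-treated cells. With PBSL, COL1A1 was still highest and COL1A2 was level with PPIB (means 462 ± 92.1 and 462 ± 27.3). COL1A1 (chromosome 17, hg38, 50183289 to 50201632) had values of 1176, 1183 and 1269 in untreated cells, 1549, 1579 and 1559.9 with IL-1β, and 1171, 845 and 853 with PBSL and IL-1β. The IL-1β libraries were the highest, above all untreated ones, and PBSL 2 and PBSL 3 were the lowest, while PBSL 1 lay just under the untreated range. The log2 change was 0.37 (SE 0.102, adjusted p = 0.0157) with IL-1β and -0.73 (SE 0.102, adjusted p = 0.00291) with PBSL. The rise with IL-1β did not pass when untreated 1 was left out (adjusted p = 0.0528) or when low values were not filtered (adjusted p = 0.0506), while without PBSL 1 the fall with PBSL was -0.88. COL1A2 (chromosome 7, 94394561 to 94431232) stood at 810.5, 881 and 893 in untreated cells, 785, 796 and 779 with IL-1β, and 568, 407 and 410.1 with PBSL and IL-1β. Its IL-1β libraries lay under all untreated ones, though by too little to pass the test, and its PBSL libraries lay lower still. The log2 change was -0.13 with IL-1β (adjusted p = 0.382; called only when the fit was limited to the 6 libraries compared, adjusted p = 0.0377) and -0.79 (SE 0.105, adjusted p = 0.00264) with PBSL.

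The ratio of COL1A1 to COL1A2 was 1.45, 1.34 and 1.42 in untreated cells, 1.97, 1.98 and 2.00 with IL-1β, and 2.06, 2.08 and 2.08 with PBSL and IL-1β. All 6 libraries given IL-1β lay above the untreated ones, also those given PBSL, although both genes were lower with PBSL. The mean ratio was 1.41 ± 0.0554 (SD) in untreated cells, 1.99 ± 0.0137 with IL-1β and 2.07 ± 0.00965 with PBSL and IL-1β. The exact permutation test of IL-1β against untreated libraries, two-sided, gave p = 0.1, which is the smallest that 3 against 3 libraries allow (adjusted p = 0.132 over 33 such tests of ratios and shares). PBSL against IL-1β gave the same p for a log2 difference of 0.06. With IL-1β alone, every COL1A1 value lay above and every COL1A2 value below the untreated range. The p of IL-1β against untreated libraries was therefore fixed by both genes' own values and adds no support.

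COL5A1, a chain of type V collagen, which starts and limits the width of type I fibrils, had values of 164, 173 and 173 in untreated cells, 181, 185 and 183 with IL-1β, and 137, 102 and 97.4 with PBSL and IL-1β. Its IL-1β libraries were slightly above the untreated ones without a call (0.11, adjusted p = 0.447; called with the 6 libraries compared alone, adjusted p = 0.0345), and all PBSL libraries were lower than both (-0.72, adjusted p = 0.00282). COL3A1, the single chain of type III collagen, was expressed at a small fraction of the type I level. Its values were 6.96, 7.37 and 7.997 in untreated cells, 7.18, 6.81 and 6.93 with IL-1β, and 4.66, 2.60 and 3.49 with PBSL and IL-1β. The untreated and IL-1β libraries overlapped, and the PBSL libraries were lower than both, PBSL 2 the lowest (-0.82, SE 0.128, adjusted p = 0.00337). COL5A3 differed from these: it went from 3.61 ± 0.263 in untreated cells to 7.12 ± 0.0282 with IL-1β (0.82, adjusted p = 3.91e-05) and to 4.68 ± 0.814 with PBSL (-0.53, adjusted p = 0.00437). COL5A2, a near neighbour of COL3A1 on chromosome 2 and oppositely oriented, was near the filter, from 1.14 ± 0.150 in untreated cells to 0.901 ± 0.195 and 0.610 ± 0.0101, with no call in either of these comparisons. COL27A1 was not called in any comparison (1.78 ± 0.267, 2.01 ± 0.101 and 1.97 ± 0.224 in the same order of groups).

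**Figure D3:**
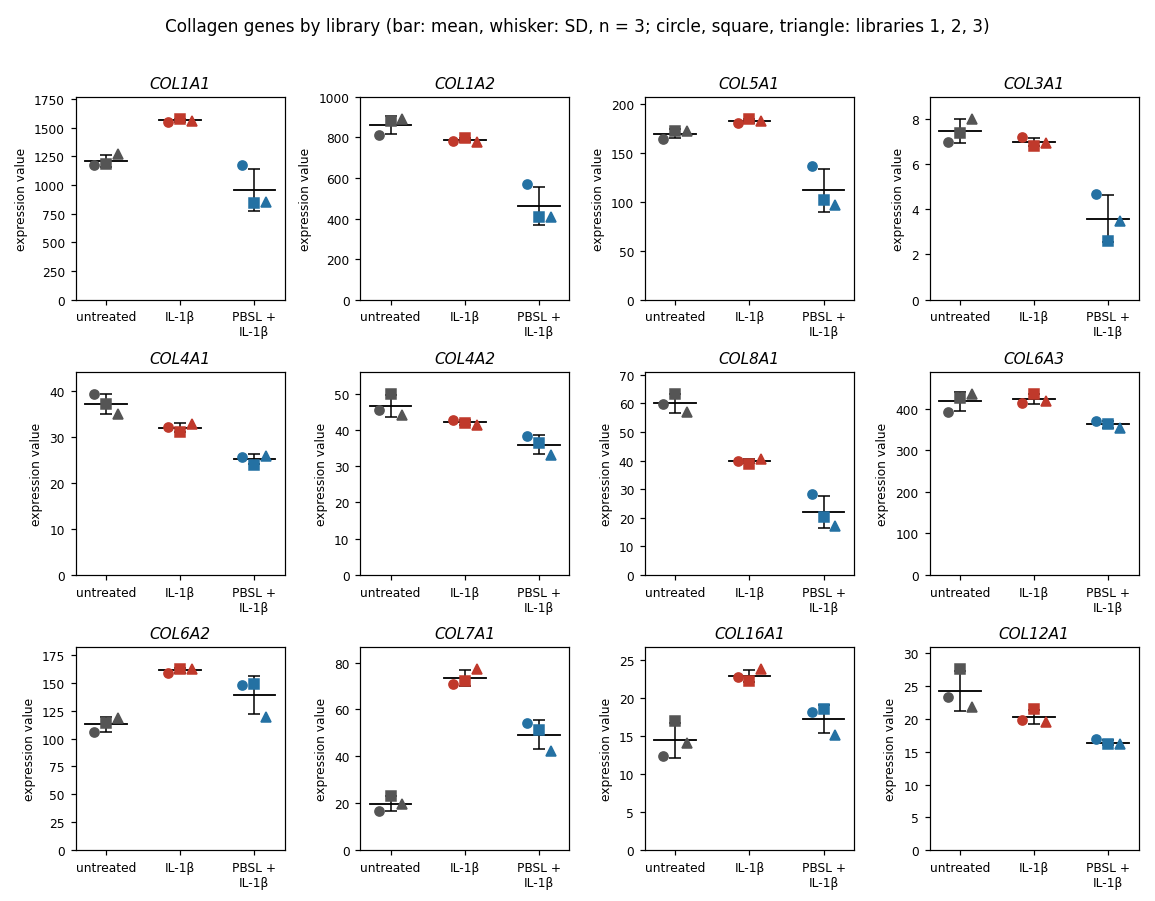
Expression values of 12 collagen genes in the 9 libraries, on linear axes that start at 0, with the mean as a bar and the SD as a whisker (n = 3); circles, squares and triangles are libraries 1, 2 and 3. The PBSL libraries lie below the IL-1β libraries in all 12 panels, and COL7A1 is the gene with the largest log2 change between untreated and IL-1β-treated cells.

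Network collagens form sheets, type IV in basement membranes and type VIII in vessel and eye matrices. With IL-1β, COL8A1 and COL4A1 fell, and no tested network collagen was called higher. COL8A1 (chromosome 3, 99638475 to 99799226) had values of 59.6, 63.4 and 56.9 in untreated cells, 39.8, 38.9 and 40.4 with IL-1β, and 28.2, 20.3 and 17.2 with PBSL and IL-1β. The 3 groups formed separate steps with no overlap, untreated the highest and PBSL the lowest. It fell by 0.58 on the log2 scale with IL-1β (adjusted p = 0.00442) and by a further 0.86 with PBSL (SE 0.129, adjusted p = 0.00312). COL8A2, the partner chain, passed from 1.43 ± 0.136 to 0.800 ± 0.116 and 0.431 ± 0.10 in untreated, IL-1β and PBSL libraries. The drop from untreated cells is given as a description, since the filter fixed it. With PBSL the log2 change was -0.33 (adjusted p = 0.0249). The COL8A2 fall with PBSL did not pass without IL-1β 1 (adjusted p = 0.0982), IL-1β 2 (0.0743), PBSL 2 (0.0707) or PBSL 3 (0.0798), and with quantile normalization (adjusted p = 0.0558).

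COL4A1 and COL4A2, which together form the common type IV collagen trimer, are arranged head to head on chromosome 13. COL4A1 had values of 39.5, 37.2 and 35.1 in untreated cells, 32.3, 31.1 and 32.9 with IL-1β, and 25.7, 24.0 and 26.0 with PBSL and IL-1β. Its groups did not overlap, with PBSL the lowest (-0.21, adjusted p = 0.0159 with IL-1β, and -0.34, adjusted p = 0.00413 with PBSL). The call with IL-1β was lost without untreated 1 (adjusted p = 0.0770) or IL-1β 2 (adjusted p = 0.0736). COL4A2 had values of 45.5, 50.0 and 44.2 in untreated cells, 42.7, 41.9 and 41.5 with IL-1β, and 38.2, 36.4 and 33.2 with PBSL and IL-1β. Its libraries fell in the same order without overlap, but its change with IL-1β was not called (-0.14, adjusted p = 0.114; called with the 6 libraries compared alone, adjusted p = 0.0419) and its call with PBSL (-0.22, adjusted p = 0.0280) was lost without any 1 of the 3 IL-1β libraries, PBSL 2 or PBSL 3 (adjusted p from 0.0581 to 0.0939) and with a trend on length and GC content removed (-0.12, adjusted p = 0.129). The ratio of COL4A2 to COL4A1 overlapped between all pairs of groups, from 1.15 to 1.34 in untreated cells, 1.26 to 1.35 with IL-1β and 1.28 to 1.51 with PBSL (exact permutation p = 0.4 for IL-1β against untreated and 0.3 for PBSL against IL-1β, adjusted p = 0.426 and 0.341).

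COL4A5 was low and not called (2.01 ± 0.0935, 2.43 ± 0.548 and 2.01 ± 0.224 in untreated, IL-1β and PBSL libraries).

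Type VI collagen forms beaded filaments around cells, including chondrocytes. Its 3 main chains did not move alike. COL6A3 had values of 393, 427 and 435 in untreated cells, 414, 437 and 419 with IL-1β, and 371, 364 and 354 with PBSL and IL-1β. The untreated and IL-1β libraries overlapped (0.02, adjusted p = 0.817), and the 3 PBSL libraries were the lowest (-0.22, adjusted p = 0.0123, lost without IL-1β 2 with adjusted p = 0.0632). COL6A2 had values of 106, 114 and 119 in untreated cells, 159, 162 and 162 with IL-1β, and 148, 149 and 119.5 with PBSL and IL-1β. All libraries given IL-1β were above the untreated ones, by 0.51 with IL-1β alone (adjusted p = 0.000384), and the change with PBSL was not called (-0.22, adjusted p = 0.0653). It was called without PBSL 1 (adjusted p = 0.0276) and with the trend on length and GC content removed (adjusted p = 0.0450). COL6A1, the neighbour of COL6A2 on chromosome 21, rose from 53.7 ± 3.99 to 68.4 ± 0.823 (0.35, adjusted p = 0.00216) and was at 62.5 ± 4.98 with PBSL (-0.13, adjusted p = 0.189). The ratio of COL6A3 to COL6A1 was 7.94, 7.85 and 7.59 in untreated cells, 6.12, 6.30 and 6.14 with IL-1β, and 5.66, 5.58 and 6.23 with PBSL and IL-1β. Every library given IL-1β lay under the untreated range (exact permutation p = 0.1 for IL-1β against untreated, adjusted p = 0.132), and the IL-1β and PBSL libraries overlapped (p = 0.3, adjusted p = 0.341). The p of IL-1β against untreated libraries was fixed by both genes' own value ranges and adds no support.

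COL7A1 had the largest fitted log2 change with IL-1β among the 40 tested genes. It encodes type VII collagen, the anchoring fibril that ties epithelial basement membranes to the tissue beneath, and lies on chromosome 3 (48564073 to 48595267). Its values were 16.8, 23.0 and 19.5 in untreated cells, 70.8, 72.2 and 77.3 with IL-1β, and 54.4, 51.1 and 42.2 with PBSL and IL-1β. The groups did not overlap: IL-1β was highest, untreated lowest, and PBSL between. The log2 change was 1.85 (SE 0.108, adjusted p = 1.25e-07) with IL-1β and -0.57 (SE 0.108, adjusted p = 0.00522) with PBSL. The 250 bases before its RefSeq start are shown as the window next to this gene (GRCh38.p14, chr3:48595330-48595579, minus strand). Capitals mark the GC box GGGCGG on either strand, with 3 matches; 42.3% of all RefSeq windows of 250 bases hold at least 1. An NF-κB consensus, searched on both strands, had 3 matches in this window, including a pair that overlap on opposite strands, and was held by 9.57% of all windows.
COL7A1: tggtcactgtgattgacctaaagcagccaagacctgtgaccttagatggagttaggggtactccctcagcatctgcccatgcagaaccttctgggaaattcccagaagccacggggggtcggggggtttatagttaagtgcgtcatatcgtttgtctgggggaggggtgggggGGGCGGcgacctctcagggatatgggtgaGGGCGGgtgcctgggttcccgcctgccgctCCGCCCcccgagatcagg

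COL12A1 and COL16A1, which decorate the surface of fibrils, moved in opposite directions with IL-1β. COL12A1 had values of 23.3, 27.7 and 21.8 in untreated cells, 19.8, 21.6 and 19.6 with IL-1β, and 16.9, 16.2 and 16.1 with PBSL and IL-1β. It fell with IL-1β (-0.24, adjusted p = 0.0384) and again with PBSL (-0.29, adjusted p = 0.0226), with no overlap between any pair of groups. The call with IL-1β was lost without untreated 1 (adjusted p = 0.0606), untreated 2 (0.141), IL-1β 1 (0.116) or IL-1β 3 (0.125), and with no filter (0.0665), and the call with PBSL without any 1 of the 3 IL-1β libraries, PBSL 2 or PBSL 3 (adjusted p from 0.0510 to 0.0938). COL16A1 had values of 12.4, 16.9 and 14.1 in untreated cells, 22.8, 22.3 and 23.9 with IL-1β, and 18.2, 18.6 and 15.1 with PBSL and IL-1β. It rose with IL-1β (0.64, adjusted p = 0.000473), and its PBSL libraries lay under the IL-1β range and overlapped the untreated one (-0.40, adjusted p = 0.0187). The latter did not pass without IL-1β 1 (adjusted p = 0.0530), IL-1β 3 (0.0669) or PBSL 3 (0.0651), and with no filter (adjusted p = 0.0508).

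The transmembrane collagens held the only gene called higher with PBSL. COL17A1, a hemidesmosome collagen of epithelial cells, had values of 3.63, 3.25 and 3.48 in untreated cells, 2.90, 2.31 and 3.17 with IL-1β, and 3.81, 4.88 and 5.03 with PBSL and IL-1β. All PBSL libraries were above the IL-1β ones, PBSL 1 the least (0.55, adjusted p = 0.00544; 0.66 without PBSL 1). It is named for being the 1 gene in this direction, chosen after its values were seen. COL13A1 had values of 6.98, 7.54 and 6.86 in untreated cells, 7.03, 6.52 and 6.73 with IL-1β, and 6.70, 10.7 and 8.49 with PBSL and IL-1β. PBSL 2 and PBSL 3 were the highest of all 9 libraries while PBSL 1 lay within the IL-1β range, and the change was not called (0.29, adjusted p = 0.0991) except without PBSL 1 (0.44, adjusted p = 0.00379). COL23A1 had values of 4.59, 5.17 and 5.63 in untreated cells, 3.296, 3.86 and 3.54 with IL-1β, and 3.26, 3.03 and 2.78 with PBSL and IL-1β. It fell with IL-1β (-0.42, adjusted p = 0.00235) and was lower still with PBSL, without a call (-0.18, adjusted p = 0.145).

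COL18A1, whose C-terminal fragment is endostatin, had values of 4.70, 5.30 and 4.84 in untreated cells, 3.81, 3.49 and 3.12 with IL-1β, and 2.73, 2.75 and 2.07 with PBSL and IL-1β. It was highest in untreated cells and lowest with PBSL without overlap (-0.41, adjusted p = 0.00565, and -0.35, adjusted p = 0.0232). The second did not pass without IL-1β 1 (adjusted p = 0.0927), IL-1β 2 (0.0715) or PBSL 3 (0.0711), and with no filter (adjusted p = 0.0555). Of its annotated exon bases 16.4% overlap SLC19A1 on the opposite strand, and whether the counting used strand is not stated.

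Prolyl 4-hydroxylases make the hydroxyproline that keeps the triple helix folded. Both main catalytic subunits rose with IL-1β and were lower with PBSL, though still above untreated cells. P4HA1 had values of 60.1, 59.9 and 60.0 in untreated cells, 99.0, 96.4 and 98.4 with IL-1β, and 85.7, 70.3 and 81.1 with PBSL and IL-1β. The untreated libraries were nearly equal, and every PBSL library lay between them and the IL-1β range (0.70, adjusted p = 6.89e-06, and -0.31, adjusted p = 0.00790). P4HA2 had values of 44.2, 48.4 and 47.3 in untreated cells, 106, 109.76 and 110.02 with IL-1β, and 92.3, 84.8 and 78.5 with PBSL and IL-1β. The groups again did not overlap (1.2, SE 0.0625, adjusted p = 4.72e-08, and -0.35, adjusted p = 0.00440). The ratio of P4HA1 to P4HA2 passed from 1.29 ± 0.0646 (SD) in untreated cells to 0.903 ± 0.0286 with IL-1β, without overlap (exact permutation p = 0.1, adjusted p = 0.132), and was 0.930 ± 0.102 with PBSL. That p was fixed by both genes' own value ranges and adds no support. P4HA3 stayed near the filter and was not called (1.16 ± 0.208, 1.18 ± 0.0383 and 0.928 ± 0.196).

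P3H1, CRTAP and PPIB form the complex that 3-hydroxylates single prolines and assists folding. Only P3H1 was called with IL-1β, going from 74.1 ± 3.18 to 95.2 ± 1.34 (0.36, adjusted p = 0.00523), and it was at 70.1 ± 9.51 with PBSL (-0.44, adjusted p = 0.00478). PPIB, or cyclophilin B, had values of 505, 519 and 535 in untreated cells, 542, 535 and 537 with IL-1β, and 484, 471 and 432 with PBSL and IL-1β. PBSL libraries were under all others (-0.22, adjusted p = 0.0136), and this did not pass without IL-1β 1 (adjusted p = 0.0548) or IL-1β 3 (0.0510). CRTAP had values of 155, 152 and 158 in untreated cells, 147, 145 and 147 with IL-1β, and 136, 139.7 and 144 with PBSL and IL-1β. The changes were small and neither was called (-0.08, adjusted p = 0.185, and -0.06, adjusted p = 0.332), except for the first with quantile normalization (adjusted p = 0.0479). Of the exon bases of PPIB, 27.2% overlap SNX22 on the opposite strand.

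Lysyl hydroxylases differ in target: PLOD2 acts on the telopeptides that form stable cross-links, PLOD1 on the helix, and PLOD3 also glycosylates. PLOD2 was the only 1 of the 3 called with IL-1β. PLOD2 (chromosome 3, 146069440 to 146163653) had values of 83.6, 85.9 and 80.1 in untreated cells, 279, 289 and 289 with IL-1β, and 238, 165 and 201 with PBSL and IL-1β. The IL-1β libraries were the highest, and PBSL 2 was the lowest of the PBSL libraries, yet above all untreated ones (1.77, SE 0.10, adjusted p = 9.49e-08, and -0.52, SE 0.10, adjusted p = 0.00556). PLOD1 had values of 108, 114 and 114 in untreated cells, 121, 122 and 119 with IL-1β, and 109, 105 and 98.0 with PBSL and IL-1β. It was not called with IL-1β (0.10, adjusted p = 0.158; called with the 6 libraries compared alone, adjusted p = 0.0450) and was lower with PBSL (-0.21, adjusted p = 0.0154, lost without IL-1β 1 with adjusted p = 0.0570 or IL-1β 2 with 0.0654). PLOD3 was not called in either comparison (75.7 ± 0.859, 82.3 ± 1.83 and 81.3 ± 6.59), apart from the 6 libraries of IL-1β against untreated fitted alone (adjusted p = 0.0215). The ratio of PLOD2 to PLOD1 was thus 0.742 ± 0.0357 (SD) in untreated cells, 2.37 ± 0.0631 with IL-1β and 1.93 ± 0.319 with PBSL, without overlap between any pair of groups (exact permutation p = 0.1 for IL-1β against untreated and for PBSL against IL-1β, adjusted p = 0.132). The p of IL-1β against untreated libraries was fixed by both genes' own value ranges and adds no support.

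Lysyl oxidases are copper enzymes that oxidize lysines and so start the cross-linking of collagen and elastin. With PBSL all 5 were lower, while with IL-1β they diverged. LOX (chromosome 5, 122063195 to 122078360) had values of 129, 133 and 142 in untreated cells, 289.9, 314 and 307 with IL-1β, and 240.1, 172 and 193 with PBSL and IL-1β. The 3 groups did not overlap, IL-1β the highest and untreated the lowest (1.17, SE 0.0967, adjusted p = 2.56e-06, and -0.60, SE 0.0967, adjusted p = 0.00360). LOXL3 had values of 227, 244 and 247 in untreated cells, 177, 179 and 175 with IL-1β, and 151, 119 and 119 with PBSL and IL-1β. It took the opposite course with IL-1β (-0.43, adjusted p = 0.00161) and fell again with PBSL (-0.46, adjusted p = 0.00434). LOXL3 was the more abundant of the pair in untreated cells and LOX in every library given IL-1β: the ratio of LOX to LOXL3 was 0.562 ± 0.0143 (SD), 1.71 ± 0.0639 and 1.55 ± 0.0922 in untreated, IL-1β and PBSL libraries (exact permutation p = 0.1 for both comparisons, adjusted p = 0.132). With IL-1β alone, every LOX value lay above and every LOXL3 value below the untreated range. The p-value of that ratio comparison was therefore fixed by both genes' own values and adds no support. Of the exon bases of LOXL3, 14.3% overlap HTRA2 and 4.95% DOK1, both on the opposite strand. LOXL2 went from 166 ± 4.47 to 213 ± 4.41 and 184 ± 14.9 (0.36, adjusted p = 0.000582, and -0.21, adjusted p = 0.0234). Its second call was lost without any 1 library of the 2 groups other than PBSL 1 (adjusted p from 0.0603 to 0.0912). LOXL1 and LOXL4 were near the filter, both lower with PBSL: LOXL1 from 0.986 ± 0.165 to 0.498 ± 0.148 and LOXL4 from 1.24 ± 0.182 to 0.618 ± 0.177. No PBSL library of either gene reached 1. Both thus passed the filter only through untreated or IL-1β libraries, and their falls with PBSL add no support. The fall of LOXL1 did not pass without IL-1β 1 (adjusted p = 0.0844), IL-1β 3 (0.0556) or PBSL 3 (0.0733).

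**Figure D4:**
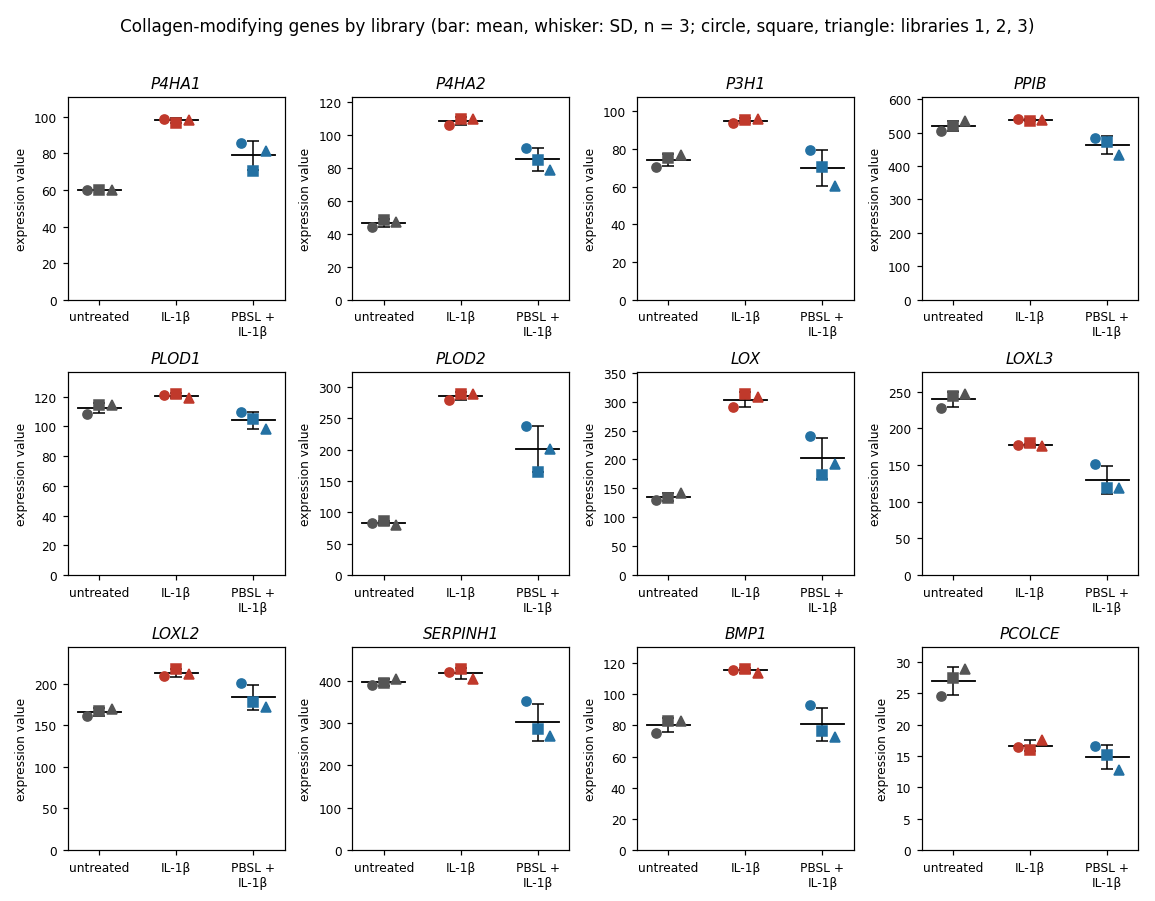
Expression values of 12 collagen-modifying genes in the 9 libraries, on linear axes that start at 0, with the mean as a bar and the SD as a whisker (n = 3); circles, squares and triangles are libraries 1, 2 and 3. PLOD2, LOX, P4HA1 and P4HA2 are highest with IL-1β and remain above untreated cells with PBSL, LOXL3 and PCOLCE are highest in untreated cells, and the PBSL libraries of BMP1 and P3H1 extend both above and below the untreated range.

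PLOD2 and LOX rose with IL-1β and fell with PBSL, so the bases next to their RefSeq starts are shown side by side (GRCh38.p14, PLOD2 chr3:146161185-146161434 and LOX chr5:122078361-122078509, both on the minus strand). For PLOD2 these are the 250 bases before the RefSeq start. They lie inside the gene span of GENCODE 29, which begins farther upstream, at 146163653. For LOX only the 149 bases farthest upstream in that window are printed, since GENCODE 29 annotates the rest as exon. Capitals mark ACGTG on either strand, the core of the hypoxia response element, which an E-box can contain. This motif occurred 2 times in the PLOD2 window, 4 times in the LOX window, 2 of them in the printed stretch, and 1 time in that of P4HA1. It was held by 18.7% of all 27303 RefSeq windows of 250 bases, and by 6 of the 30 tested genes of the set that have a window, or 20%. Of the 9 such genes called higher with IL-1β, 3 held it, and P4HA2 and COL7A1 had 0 matches. The remaining carriers were COL12A1, called lower with IL-1β, and COL5A1 and PPIB, not called with it.
PLOD2: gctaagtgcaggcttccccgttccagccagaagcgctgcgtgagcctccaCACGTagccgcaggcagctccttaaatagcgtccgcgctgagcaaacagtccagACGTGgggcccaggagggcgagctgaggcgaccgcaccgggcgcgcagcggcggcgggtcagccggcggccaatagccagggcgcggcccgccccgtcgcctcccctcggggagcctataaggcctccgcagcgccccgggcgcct
LOX: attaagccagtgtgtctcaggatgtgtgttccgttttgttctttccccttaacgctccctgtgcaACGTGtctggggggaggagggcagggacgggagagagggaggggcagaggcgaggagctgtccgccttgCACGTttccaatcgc

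Among the 7 motifs searched, the GC box GGGCGG was held by 21 of the 30 windows (70%, against 42.3% of all windows). All windows include genes too low to be tested here, so the sets differ in expression. COL1A1 and COL1A2 have no window. TATAAA was held by 16.7% (all windows 11.1%), CCAAT by 30% (33.0%), CAGACA, a SMAD-binding sequence, by 10% (13.6%), the NF-κB consensus by 13.3% (9.57%) and TGANTCA, an AP-1 sequence, by none (6.60%). A match says only that these letters occur in the window.

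The chaperones and propeptide enzymes were lower with PBSL with 1 exception. SERPINH1 (HSP47, the collagen-specific chaperone) had values of 389.8, 395 and 405 in untreated cells, 421, 429 and 404 with IL-1β, and 352, 286 and 269 with PBSL and IL-1β. The untreated and IL-1β libraries overlapped, and all PBSL libraries were lower, PBSL 1 the least (-0.47, SE 0.0820, adjusted p = 0.00413; -0.59 without PBSL 1). FKBP10 had values of 153, 169.6 and 177 in untreated cells, 192, 186 and 194 with IL-1β, and 166, 149.5 and 129 with PBSL and IL-1β. Its IL-1β libraries lay just above the untreated range, called with the 6 libraries compared alone (adjusted p = 0.0120) and not otherwise (0.20, adjusted p = 0.0877), and its PBSL libraries lay under the IL-1β range (-0.37, adjusted p = 0.00988). BMP1, the protease that removes the C-propeptide, had values of 75.0, 83.0 and 82.6 in untreated cells, 116, 116 and 114 with IL-1β, and 92.8, 76.7 and 72.6 with PBSL and IL-1β. It rose with IL-1β (0.52, adjusted p = 0.000377) and with PBSL was lower, its libraries reaching from above to below the untreated range (-0.52, adjusted p = 0.00329). PCOLCE, the enhancer of that protease, had values of 24.5, 27.4 and 28.9 in untreated cells, 16.4, 15.9 and 17.6 with IL-1β, and 16.6, 15.1 and 12.8 with PBSL and IL-1β. It fell with IL-1β (-0.66, adjusted p = 0.000154), and its IL-1β and PBSL libraries overlapped (-0.16, adjusted p = 0.226). Of its exon bases 16.6% overlap the antisense gene PCOLCE-AS1.

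As a share of all summed values, in percent, the 41 collagens made up 0.542, 0.590 and 0.585 in untreated cells, 0.622, 0.633 and 0.629 with IL-1β, and 0.484, 0.390 and 0.386 with PBSL and IL-1β. The IL-1β libraries were above the untreated ones and all PBSL libraries under both. A sum follows its most abundant genes, here COL1A1 foremost (means 1209.5, 1562.8 and 956 in untreated, IL-1β and PBSL libraries). The median log2 change of the 22 tested collagens with IL-1β was -0.07, with 10 positive and 12 negative. With PBSL against IL-1β it was -0.31, with 2 positive and 20 negative. The 18 modifying genes made up 0.418, 0.449 and 0.442 in untreated cells, 0.526, 0.531 and 0.530 with IL-1β, and 0.456, 0.401 and 0.399 with PBSL and IL-1β, where PBSL and untreated libraries overlapped (exact permutation p = 0.4, adjusted p = 0.426). The other comparisons of these shares gave exact permutation p = 0.1 (adjusted p = 0.132).

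**Figure D5:**
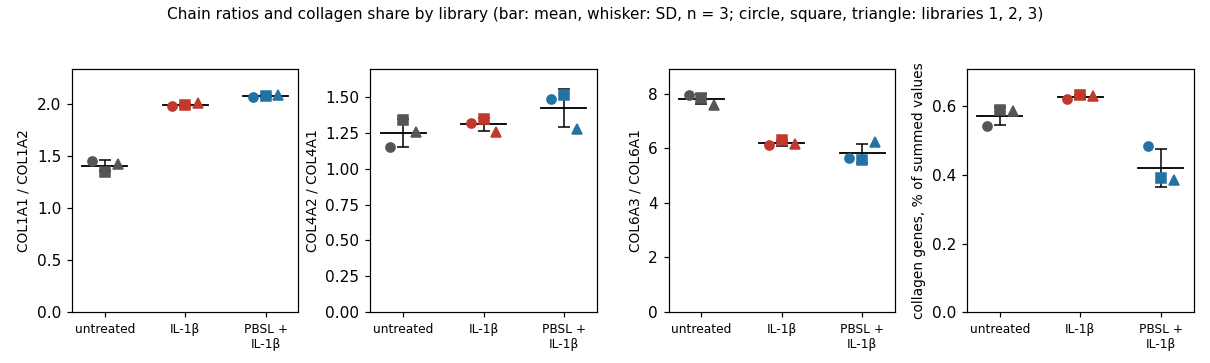
Ratios of chain genes of type I, type IV and type VI collagen and the share of the 41 collagens in the summed values, by library, on linear axes from 0; bars are means and whiskers SDs (n = 3). The COL1A1 to COL1A2 ratio sits near 1.41 in untreated cells and near 2 in all 6 libraries given IL-1β, and the collagen share is lowest in PBSL 2 and PBSL 3.

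The third comparison sets PBSL with IL-1β against untreated cells; it shares libraries with the other comparisons, which themselves share the IL-1β libraries, and is no independent evidence. Of the 40 tested genes 9 were higher and 20 lower. The 20 include COL8A2, which passed the filter only through the untreated libraries, so its fall was fixed and supports nothing here. They also include COL5A2, LOXL1 and LOXL4, which passed only through untreated or IL-1β libraries. The filter favoured their falls, which add no support. Of all tested genes 41.6% were called, 22.3% higher and 19.3% lower. The log2 change from untreated cells was -1.44 for COL8A1, and -0.91, -0.90 and -0.89 for COL1A2, COL3A1 and LOXL3 (adjusted p = 4.72e-06, 3.48e-05, 0.000181 and 5.82e-06). COL7A1, PLOD2, P4HA2 and LOX remained higher, by 1.28, 1.25, 0.85 and 0.57 (adjusted p = 3.05e-06, 1.93e-06, 9.09e-07 and 0.000683). COL1A1, which IL-1β raised, was under its untreated level (-0.35, adjusted p = 0.0158), a call lost without untreated 3 (adjusted p = 0.0594), PBSL 2 (0.0692) or PBSL 3 (0.0612). Without 1 library the calls of COL17A1, COL5A3, COL6A1, CRTAP and PPIB were also lost in this comparison, with adjusted p from 0.0502 to 0.108: COL17A1 without untreated 2, untreated 3, PBSL 2 or PBSL 3, COL5A3 without untreated 1 or PBSL 1, COL6A1 without untreated 1, untreated 2, PBSL 1 or PBSL 2, CRTAP without untreated 1 or untreated 3, and PPIB without untreated 2 or untreated 3.

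Other genes of collagen handling were read from lists chosen by function, and the lists were not tested as sets. For scale, 16.2% of all tested genes were called higher and 16% lower with IL-1β. With PBSL against IL-1β the shares were 11.5% and 11%. Of 30 genes for folding, glycosylation and secretion, 12 rose and 2 fell with IL-1β (median log2 change 0.07), and 2 rose and 10 fell with PBSL (median -0.16). HSPA5, the chaperone BiP, had log2 changes of 0.60 and -0.38, and P3H2, a prolyl 3-hydroxylase, of 0.66 and -0.49 (adjusted p = 4.11e-05 and 0.00456, and 0.000142 and 0.00458). Of 8 tested genes for propeptide removal and fibril assembly, 4 rose with IL-1β and all 8 fell with PBSL (median -0.44), among them DCN, the fibril-binding proteoglycan decorin, with log2 changes of 3.34 and -0.47 (adjusted p = 2.80e-11 and 0.00405), SPARC, a collagen-binding protein (-0.38, adjusted p = 0.00312), and BGN, the proteoglycan biglycan (-0.47, adjusted p = 0.00415).

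Of 9 tested collagen receptors, 2 rose and 2 fell with IL-1β, and 1 rose and 5 fell with PBSL. The shares of all tested genes were 16.2% higher and 16% lower with IL-1β, and 11.5% and 11% with PBSL. The integrin subunit ITGA11, a receptor for fibrillar collagen, had log2 changes of -0.38 and -0.67 (adjusted p = 0.0272 and 0.00415), and MRC2, which takes up collagen, was called with PBSL only (-0.42, adjusted p = 0.00805); whether its changes in the comparisons differ was not tested. All 6 tested collagen-cleaving proteases rose with IL-1β, and with PBSL 2 rose and 2 fell: MMP1 (0.47) and MMP9 (0.58) rose, and MMP13 (-0.71) and MMP2 (-0.30) fell (adjusted p = 0.00924, 0.0322, 0.0101 and 0.00592). Of 6 tested genes for ascorbate and proline supply, 2 rose and 2 fell with IL-1β and 1 fell with PBSL.

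TGF-β signalling is a known driver of collagen expression. Among all tested genes, 16.2% were called higher and 16% lower with IL-1β, and 11.5% and 11% with PBSL. Of 12 tested TGF-β genes 4 rose and 2 fell with IL-1β, and 6 fell and 6 were not called with PBSL (median log2 change -0.13). Those that fell included TGFB3 (-0.78, adjusted p = 0.00324) and CTGF, now CCN2 (-0.56, adjusted p = 0.00312). Of the 4 smooth muscle and myofibroblast markers in the table, ACTA2, CNN1 and DES were tested, and all 3 fell with PBSL, while MYH11 reached at most 0.0240. DES reached 1 in no PBSL library and passed the filter only through the other groups, so its fall with PBSL adds no support. The ranges that follow sum all 4 markers. The summed values of these markers were 183.8 to 195.3 in untreated cells, 89.3 to 92.5 with IL-1β and 35.6 to 59.2 with PBSL. Macrophage markers summed to 72.0 to 79.3, 99.4 to 102.9 and 85.2 to 90.4 in the same order, mostly from CD68, and PTPRC reached at most 0.393. Epithelial markers summed to 137.7 to 148.4, 76.6 to 78.2 and 57.6 to 77.0, mostly from KRT8 and KRT18. CLDN4, also an epithelial marker, rose with IL-1β instead (log2 change 1.03, adjusted p = 4.99e-05). EPCAM and CDH1 reached at most 0.489 and 0.341. Endothelial markers summed to at most 1.33 in any library. The part of these genes in the collagen results was not tested.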

How the data were processed

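RNA-seq libraries of SW1353 cells were analysed, 9 in all, 3 in each of 3 groups taken from the labels. Per the labels' protocols they were mRNA libraries made with a directional kit. Per the submitters' processing notes, Trim Galore, STAR, HTSeq and the build hg38 were used; versions are not given in the sources used here. The authors deposited 1 table of normalized signal values per gene symbol, neither counts nor a named unit. In 1414 genes above 0 in 1 to 3 libraries, the smallest value fell with transcript length (Spearman's rho -0.72 across genes), so the values are read as scaled by length. Value times kilobases in these genes had library medians from 0.0564 to 0.0959; the number of reads behind a value is unknown.

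The 11924 of 19389 genes that reached 1 in 3 or more libraries were fitted as log2(value + 1) with limma 3.58.1 in R 4.3.3, with a variance trend, a mean per group over all 9 libraries and 6 residual degrees of freedom. Benjamini-Hochberg adjustment covered all genes tested, and all tests were two-sided. Ratios were tested by exact permutation, and their gene pairs were not named in advance. The count-based alternatives were not run, since the file holds no counts. Other alternatives were pseudocounts of 0.1 and 0.5, no filter or a filter of 5, median-ratio and quantile scaling, a robust variance, a fit of the 6 libraries compared, a replicate block and leaving out each library. Removing a trend on length and GC content was added after the data were seen. The fit was tested on simulated data.

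Values in every library are given for COL1A1, COL1A2, COL4A1, COL4A2, PLOD2, LOX and SERPINH1, for the 2 most abundant tested genes of each class, and for the 4 largest called changes in each direction and comparison with a mean of at least 5. The values of COL5A1 and COL17A1 were added after their values were seen. Members and lists were chosen with earlier results of these data known. Positions come from GENCODE 29 and upstream sequences from RefSeq (GRCh38.p14), where 44 of the 59 genes matched by symbol. Tables and figures were made with Python 3.11.15, pandas 2.3.3 and matplotlib 3.10.9.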

Additional observations from a re-analysis of the deposited data

How the results depend on the processing

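The counts of called genes among the 40 tested stayed within 1.5 times their value under the alternatives run, with these exceptions, over all genes included. With a filter of 5 in 3 libraries, which tests 30 of the 40 genes, 5 were lower with IL-1β and 0 higher with PBSL, because COL17A1 was no longer tested. Leaving out 1 library at a time gave 6 to 8 lower genes with IL-1β, and 1 to 2 higher and 19 to 29 lower genes with PBSL against IL-1β. Over all genes, leaving out 1 library gave 650 to 2019 higher and 664 to 1885 lower genes with PBSL against IL-1β (1370 and 1314 with all 9). Higher and lower genes numbered 718 and 730 when IL-1β 1 was left out, 650 and 664 for IL-1β 2, 682 and 678 for IL-1β 3, and 713 and 723 for PBSL 2; the cause was not tested. With a trend on length and GC content removed, 13 of the 40 genes were higher and 8 lower with IL-1β, and 28 were lower with PBSL. No direction reversed among the called genes, and of the single-gene changes recomputed, 70 lost a call and 20 gained one, while 1800 stayed on the same side of the threshold.

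The replicate numbers in the labels do not pair the libraries: deviations of same-numbered libraries correlated from -0.225 to 0.0681, and not every library correlated best with its own number. With the replicate block, 13 of the 40 genes were higher and 8 lower with IL-1β, 1 higher and 28 lower with PBSL, and 9 higher and 20 lower for PBSL against untreated cells, and no tested gene of the set changed its call. Over all genes the block gave 1781 higher and 1698 lower with IL-1β, 1065 and 1066 with PBSL, and 2410 and 2125 for PBSL against untreated cells. The depth behind each value is unknown, so low genes such as COL5A2, COL8A2, LOXL1 and LOXL4 carry an unmeasured counting error.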
